A study of Mus musculus with 9 samples.

Results

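The Fos and Jun genes were followed in K7M2, a mouse osteosarcoma cell line, cultured without platelets or with mouse platelets. The members were the rows of the gene table named Fos, Fosb, Fosl1, Fosl2, Jun, Junb and Jund, 7 of 55401 genes. RNA was sequenced from 9 libraries in 3 groups of 3: untreated cells, cells given mouse platelets, and cells given mouse platelets marked (A/R), a mark that the labels leave unexplained. All groups share the wild-type K7M2 line and medium with serum, and the titles give 24 h throughout. In the treatment field the same libraries carry 24, 25 and 26 h (platelets) and 27, 28 and 29 h ((A/R) platelets), a rise of 1 h from each library to the next that conflicts with the titles and the treatment protocol. Which hours are right is not known, and if the treatment field holds, time and the (A/R) mark cannot be told apart. The labels name no separate cultures, so the p-values measure library-to-library spread alone, and that spread may be technical.

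AP-1 is a dimeric transcription factor made of 1 Jun protein with a Fos protein, or of a pair of Jun proteins, held together by a leucine zipper. Fos proteins do not form stable dimers with each other. Growth factor signalling through MAP kinases induces the genes, some briefly (Fos, Fosb, Jun, Junb) and some for longer (Fosl1, which encodes FRA-1, and Fosl2, which encodes FRA-2). The family is tied to bone tumours by history, since Fos was found as the oncogene of a mouse osteosarcoma virus.

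In untreated cells Fosl1 had the highest level of the family, at 43.6% to 50.6% of its summed FPKM, and Fos and Fosb were under 0.21 FPKM. (A/R) platelets raised Fosl1 and Junb and lowered Fosl2. Platelets raised Fosl1 and Jun, 1.30-fold and 1.35-fold, and these calls were not stable when libraries were left out. Jund passed no test.

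The 3 promoters shown here are those of Jun and Junb, which were called in different comparisons, and of Fos, which was near 0 in all libraries. RefSeq promoter sequence (GRCm38.p6) was at hand for 6 of the 7 members, Fos, Fosb, Fosl2, Jun, Junb and Jund. Each line gives the 120 bases before the RefSeq start on the strand of the gene, Jun at chr4:95052223-95052342 (minus), Junb at chr8:84978749-84978868 (minus) and Fos at chr12:85473770-85473889 (plus). Capitals mark TGACATCA and the MEF2 site in Jun, TGACG in Junb, and in Fos the TGACG nearer the start and the TATA box, spelled TATAAA.
Jun: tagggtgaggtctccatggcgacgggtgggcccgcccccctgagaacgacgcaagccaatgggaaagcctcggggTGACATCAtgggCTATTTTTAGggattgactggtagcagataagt
Junb: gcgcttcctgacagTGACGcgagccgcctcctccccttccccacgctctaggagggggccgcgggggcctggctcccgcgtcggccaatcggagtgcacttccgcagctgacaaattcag
Fos: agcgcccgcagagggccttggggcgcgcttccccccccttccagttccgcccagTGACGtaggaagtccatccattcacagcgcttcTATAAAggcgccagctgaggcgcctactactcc
In Jun the letters TGACATCA, a variant of the AP-1 site through which Jun is known to act on its own promoter, stood 45 to 38 bases before the start. The MEF2 site followed at 33 to 24 bases before it, without overlap. TGACG, the core of the CRE (the site of CREB and ATF proteins), stood 106 to 102 bases upstream in Junb, 66 to 62 and again 129 to 125 in Fos, and 60 to 56 in Fosb. TATAAA stood 33 to 28 bases upstream in Fos. All 250 bases upstream were searched on both strands, TATAAA on the gene's strand only. Of 32851 mouse promoters, 2.93% held TGACATCA, 2.92% the MEF2 site, 17.8% TGACG and 7.59% TATAAA. The AP-1 site was searched as TGANTCA, with any base at N (6.75% of promoters). Neither it nor the full CRE TGACGTCA (1.55%), which contains TGACG, had a match in the windows of these 6 members. Nor had the CArG box, the site of SRF (1.47%). Bases further than 250 upstream were not searched, so the lack of a match does not show that a promoter lacks the site. The TGACATCA and TGACG searches, and those for the TATA box and the MEF2 site, were added after the sequences were seen. For Fosl2 and Jund the RefSeq start lies 671 and 1210 bases from the start of the gene in the deposited table, so their windows may not be the promoter in use.

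Library totals were 37465049 to 61366030 estimated counts, and 1 sequenced fragment added about 4 counts. A gene with 0 observed fragments could thus have an expected level of up to 12 counts, or 3 fragments, in a library. Of 8 osteoblast markers, Spp1, Col1a2, Col1a1 and Runx2 were present, with group means of 286.7 to 324.7 FPKM for Spp1. Bglap and Sp7 were nearly absent, with group means of at most 0.160 and 0.0145 FPKM, and Alpl and Ibsp had 0 counts in all 9 libraries. The 8 summed to 2193 to 2256 CPM in untreated cells, 1991 to 2104 with platelets and 1788 to 1862 with (A/R) platelets. The 17 platelet markers summed to 4.32 to 6.47 CPM in untreated cells, 4.10 to 5.53 with platelets and 2.49 to 3.41 with (A/R) platelets, and Tubb1, Gp6, Clec1b and Treml1 had 0 counts in all 9. The 8 leukocyte markers summed to 3.95 to 6.91, 4.44 to 13.3 and 4.41 to 7.87 CPM and the 6 erythroid markers to 0.836 to 1.74, 1.41 to 2.36 and 1.20 to 1.92 CPM in the same order of groups. Their part in the changes of the members was not tested. In such bulk libraries, fewer cells with a transcript and less of it per cell cannot be told apart.

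**Figure D1:**
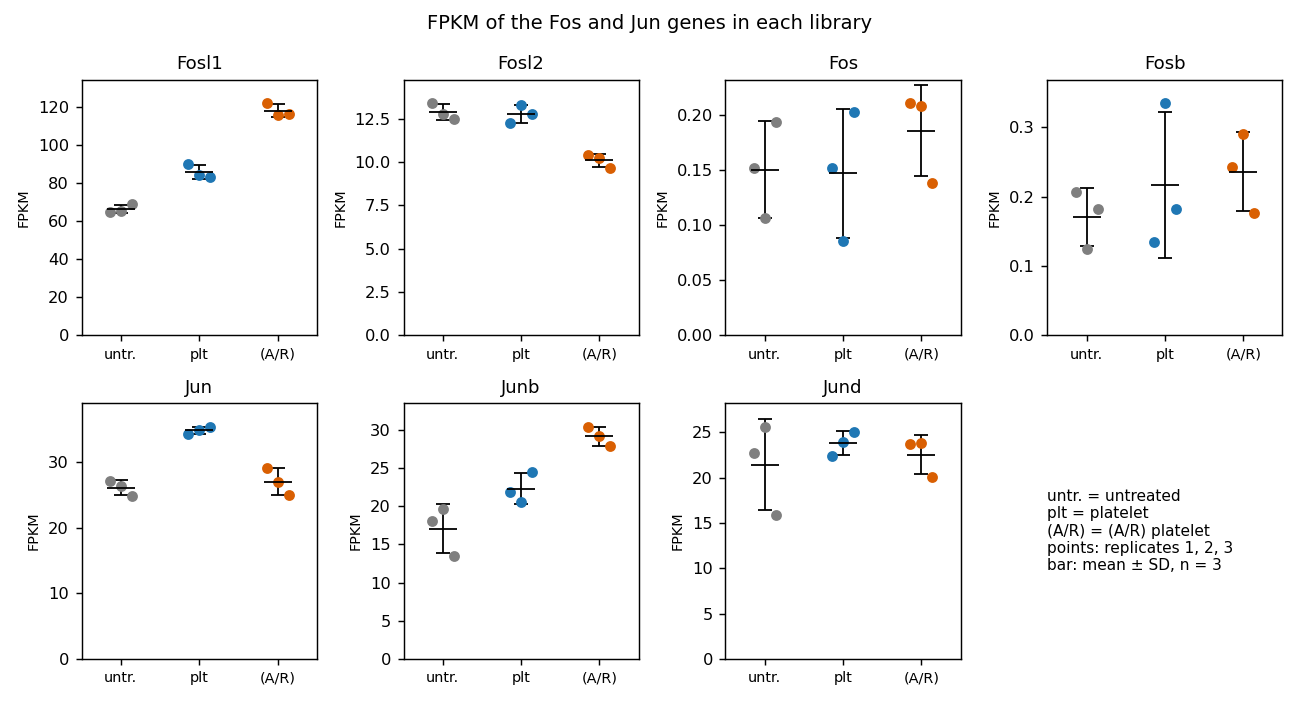
FPKM of the 7 Fos and Jun genes by group, with points for replicates 1 to 3 from left to right and bars for the mean ± SD (n = 3), each panel starting at 0. Fosl1 steps up from 64.4 to 68.8 in untreated to 116 to 122 in (A/R) platelet libraries, Jun is highest in the platelet group, and Fos and Fosb stay under 0.34.

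Fosl1 encodes FRA-1, a Fos protein without the strong activation domain of c-Fos. It spans 5447547 to 5455946 of chromosome 19, plus strand, on GRCm38. Its FPKM, the deposited level per kilobase of transcript, was 64.4, 65.3 and 68.8 in untreated replicates 1 to 3, 89.7, 83.8 and 82.9 with platelets and 121.9, 115.7 and 115.9 with (A/R) platelets. No library of a group overlapped another group, and the order was untreated, platelet, (A/R) platelet. The means were 66.2 ± 2.29, 85.5 ± 3.67 and 117.8 ± 3.52 FPKM (SD, n = 3). The level placed Fosl1 above 93.9% of the 11826 tested genes in untreated and above 96.7% in (A/R) platelet libraries. By edgeR's quasi-likelihood test, adjusted over all tested genes, Fosl1 rose with platelets (log2 fold change 0.38 ± 0.046, SE, adjusted p 0.0128) and with (A/R) platelets (0.88 ± 0.046, adjusted p 2.35e-06), and was higher with (A/R) platelets than with platelets (0.50 ± 0.046, adjusted p 6.46e-05).

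Fosl2, the gene of FRA-2, spans 32135801 to 32157842 of chromosome 5, plus strand. It held 13.4, 12.8 and 12.5 FPKM in untreated cells, 12.3, 13.3 and 12.8 with platelets and 10.4, 10.2 and 9.65 with (A/R) platelets. All 3 (A/R) platelet libraries lay below the other 6, which overlapped each other. Fosl2 fell against untreated (log2 fold change -0.30 ± 0.050, SE, edgeR adjusted p 0.00144) and was lower than with platelets (-0.30 ± 0.050, adjusted p 0.00162). With platelets its log2 fold change was 0.00, with a 95% interval of -0.11 to 0.12 (adjusted p 0.993). The ratio of Fosl1 to Fosl2 on the FPKM scale was 5.14 ± 0.353 in untreated cells, 6.69 ± 0.536 with platelets and 11.7 ± 0.353 with (A/R) platelets (SD, n = 3).

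Fos, the gene of c-Fos and the best known immediate early gene, spans 85473890 to 85477273 of chromosome 12, plus strand. It held 22, 16 and 19 counts in untreated cells, 21, 13 and 25 with platelets and 25, 34 and 23 with (A/R) platelets, or 0.0856 to 0.211 FPKM. Fosb, at 19302696 to 19310051 of chromosome 7, minus strand, held 75, 48 and 48 counts in untreated cells, 49, 112 and 60 with platelets and 78, 125 and 74 with (A/R) platelets, or 0.125 to 0.335 FPKM. The groups overlapped for both genes. Neither reached the 1 FPKM in 3 libraries needed for the test, and at these counts a moderate change was not detectable. In a fit of all 25323 genes with counts, the log2 fold change of Fos with (A/R) platelets was 0.35, with a 95% interval of -0.78 to 1.48 (edgeR adjusted p 0.751). That of Fosb was 0.53, with an interval of -0.33 to 1.39 (adjusted p 0.424). With platelets the values were 0.01 for Fos (-1.12 to 1.15, adjusted p 1) and 0.36 for Fosb (-0.51 to 1.22, adjusted p 0.815).

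Jun, the gene of c-Jun, is a single exon on the minus strand of chromosome 4 at 95049034 to 95052222. Its FPKM was 27.1, 26.3 and 24.8 in untreated cells, 34.2, 34.8 and 35.4 with platelets and 29.1, 26.9 and 25.0 with (A/R) platelets. The platelet libraries were the 3 highest, and the other groups overlapped. Jun rose with platelets (log2 fold change 0.43 ± 0.061, SE, edgeR adjusted p 0.0322) and was lower with (A/R) platelets than with platelets (-0.33 ± 0.061, adjusted p 0.00301). Against untreated cells, (A/R) platelets gave 0.10, with a 95% interval of -0.04 to 0.24 (adjusted p 0.225).

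Junb, whose protein is a weaker activator than c-Jun and can oppose it, is a single exon on the minus strand of chromosome 8 at 84976910 to 84978718. It held 18.0, 19.6 and 13.5 FPKM in untreated cells, 21.9, 20.5 and 24.5 with platelets and 30.5, 29.2 and 27.9 with (A/R) platelets. No groups overlapped. Junb rose with (A/R) platelets (log2 fold change 0.83 ± 0.131, SE, edgeR adjusted p 0.00111) and was higher there than with platelets (0.43 ± 0.131, adjusted p 0.0323). With platelets the value was 0.40, with a 95% interval of 0.10 to 0.70, and it did not pass after adjustment (adjusted p 0.283).

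Jund, the Jun gene that is usually expressed at a steady level in resting cells, is a single exon at 70698949 to 70700616 of chromosome 8, plus strand. Its FPKM was 22.7, 25.6 and 15.9 in untreated cells, 22.4, 24.0 and 25.0 with platelets and 23.7, 23.8 and 20.02 with (A/R) platelets. The groups overlapped, and untreated replicate 3, the library with the fewest counts, was the lowest of all 9 for Jund, Junb and Jun. The log2 fold change was 0.17 with platelets (95% interval -0.19 to 0.52, adjusted p 0.696) and 0.12 with (A/R) platelets (-0.24 to 0.48, adjusted p 0.589). Between the platelet groups it was -0.04 (-0.40 to 0.31, edgeR adjusted p 0.862). Without untreated replicate 3 the values were -0.01 with platelets and -0.05 with (A/R) platelets for Jund. For Junb they were 0.26 with platelets (adjusted p 0.465) and 0.68 with (A/R) platelets, where it kept its call (adjusted p 0.00102).

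**Figure D2:**
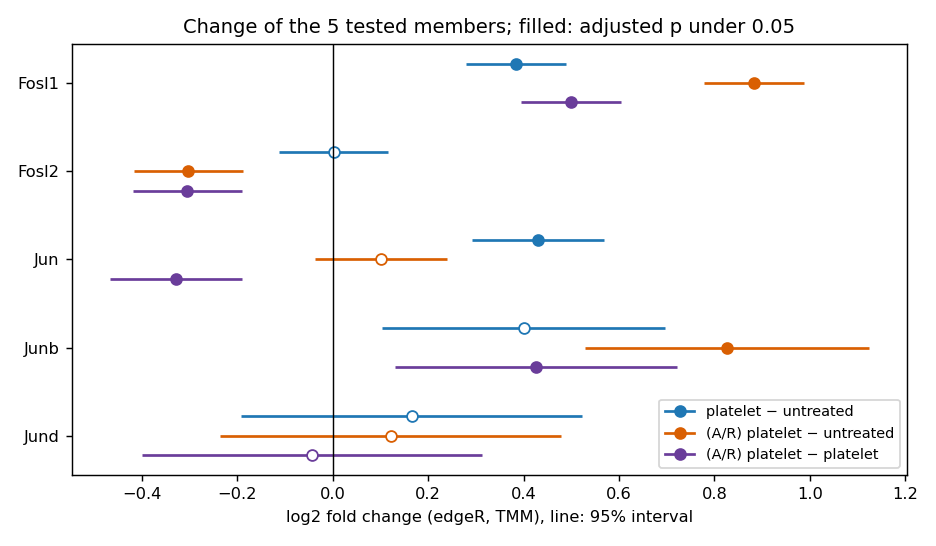
Log2 fold changes of the 5 tested members in the 3 comparisons, with lines for 95% intervals and filled points for an adjusted p under 0.05. Fosl1 and Junb lie right of 0 in all 3 comparisons, Fosl2 lies at -0.30 in both comparisons that involve (A/R) platelets, and the intervals of Jund span 0.

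Of the 5 tested members, 2 were called higher and 0 lower with platelets, where 0.211% of all tested genes were called higher and 0.0507% lower. With (A/R) platelets 2 were higher and 1 lower, against 19.3% and 19.5% of all tested genes. Between the platelet groups 2 were higher and 2 lower with (A/R) platelets, against 17.1% and 17.1%. The FPKM values of the groups did not overlap in 3, 3 and 4 of the 5 members in that order, where 19.3%, 51.1% and 48.9% of all tested genes did not overlap. The comparisons share groups, so their counts are not independent. The members were chosen with earlier results of these data known, so their counts beside those shares are a description and not independent evidence.

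The calls with platelets were not stable. Fosl1 kept its call in 7 and Jun in 2 of the 9 refits that left out 1 library. Left out in turn, untreated replicate 1 or 2 ended the call of Fosl1 (edgeR adjusted p 0.0641 and 0.0510). The call of Jun held when the first or the third (A/R) library was left out (0.0264 and 0.0252). It was lost without untreated replicate 1, 2 or 3 (0.0701, 0.0875 and 0.119), without platelet replicate 1, 2 or 3 (0.0961, 0.105 and 0.138) and without the second (A/R) library (0.0727). The log2 fold changes themselves stayed between 0.35 and 0.41 for Fosl1 and between 0.39 and 0.46 for Jun over all alternatives. Between the platelet groups, Junb lost its call without platelet replicate 1 or 2 (0.0829 and 0.0956) and without each (A/R) library in turn (0.0829, 0.0720 and 0.0517). The calls of Fosl1, Fosl2 and Junb against untreated cells with (A/R) platelets, and those of Fosl1, Fosl2 and Jun between the platelet groups, held without any single library.

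The make-up of the family shifted with (A/R) platelets. The FPKM of the 7 members summed to 143.9 ± 7.26 in untreated cells, 179.5 ± 2.34 with platelets and 207.1 ± 8.61 with (A/R) platelets (SD, n = 3). Fosl1 made up 43.6% to 50.6% of the sum in untreated cells, 45.8% to 49.6% with platelets and 56.1% to 58.3% with (A/R) platelets. The share of Fosl1 in (A/R) platelet libraries was thus above all others, while untreated and platelet libraries overlapped. Jun took 17.5% to 18.5%, 18.9% to 19.7% and 12.6% to 13.5% in the same order, and Fosl2 8.54% to 9.19%, 6.80% to 7.54% and 4.82% to 4.96%. Fos took at most 0.143% and Fosb at most 0.190% in any library.
The order of the Jun genes differed between groups: Jun exceeded Jund and Jund exceeded Junb in each untreated and platelet library, whereas Junb exceeded Jun and Jun exceeded Jund in each (A/R) platelet library. By group, the ranges of Jun, Jund and Junb overlapped in neighbouring pairs in untreated cells, those of Jund and Junb in platelet libraries, and those of Junb and Jun in (A/R) platelet libraries. Fosl1 was above and Fosl2 below all of these in each library, and the ranges of Fos and Fosb overlapped in each group. The sum of the Fos genes over that of the Jun genes was 1.25 ± 0.223 in untreated cells, 1.22 ± 0.0857 with platelets and 1.63 ± 0.0791 with (A/R) platelets, with untreated replicate 3 at 1.51 and the other untreated libraries at 1.15 and 1.09.

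**Figure D3:**
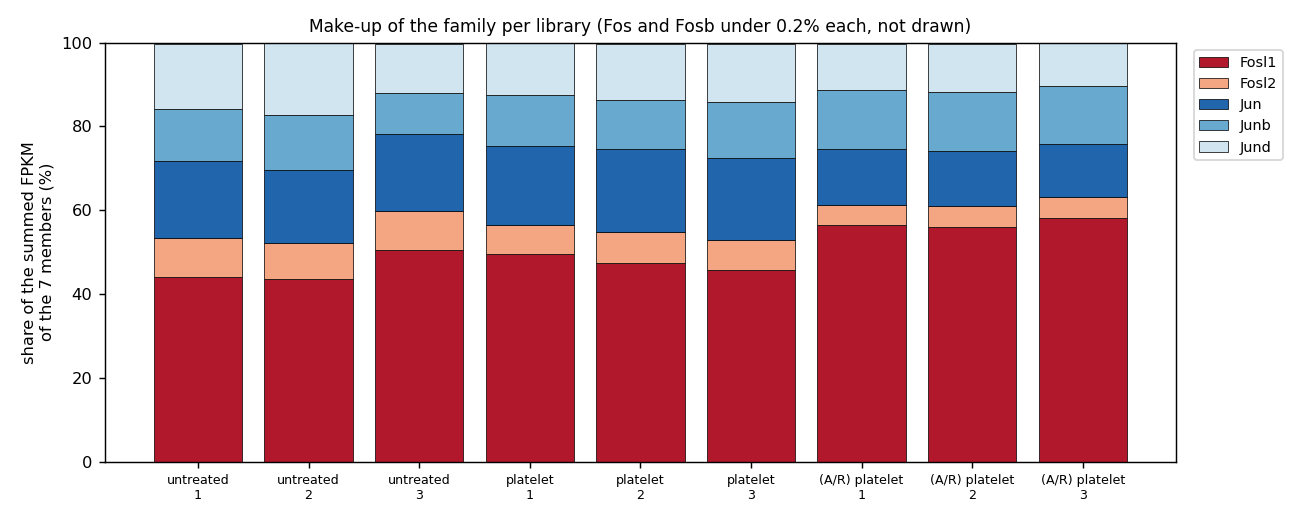
Share of each member in the summed FPKM of the 7 members (%), 1 bar for each library, with Fos and Fosb too small to draw. Fosl1 takes 56.1% to 58.3% in the (A/R) platelet libraries and 43.6% to 50.6% elsewhere, and the share of Fosl2 is lowest there.

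A gene on the opposite strand overlaps Fosl1, Jun and Jund, and no source used here says whether counting used strand, so reads in the shared stretches cannot be told apart. Ccdc85b (chromosome 19, 5453180 to 5457894, minus strand) shares 2767 bases with the span of Fosl1. It held 20.2, 22.6 and 42.4 FPKM in untreated cells, 20.7, 19.2 and 20.8 with platelets and 53.3, 18.8 and 18.0 with (A/R) platelets. Untreated replicate 3 and (A/R) platelet replicate 1, where Ccdc85b was high, also held the highest Fosl1 of their groups. Without both libraries the log2 fold change of Fosl1 with (A/R) platelets was 0.89 (edgeR adjusted p 0.000155) and that with platelets 0.41 (adjusted p 0.0598). Junos, a noncoding gene that starts within Jun (chromosome 4, 95051534 to 95167318, plus strand), shares 689 bases with it. Its FPKM was 2.46 ± 0.373 in untreated cells, 2.39 ± 0.0251 with platelets and 1.13 ± 0.0516 with (A/R) platelets (SD, n = 3). Junos fell with (A/R) platelets (log2 fold change -1.07 ± 0.126, SE, edgeR adjusted p 0.000209) and was at -0.03 with platelets (adjusted p 0.947). Gm11175, within Jund, had 0 counts in all 9 libraries. Ccdc85b and Junos were chosen for their position.

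**Figure D4:**
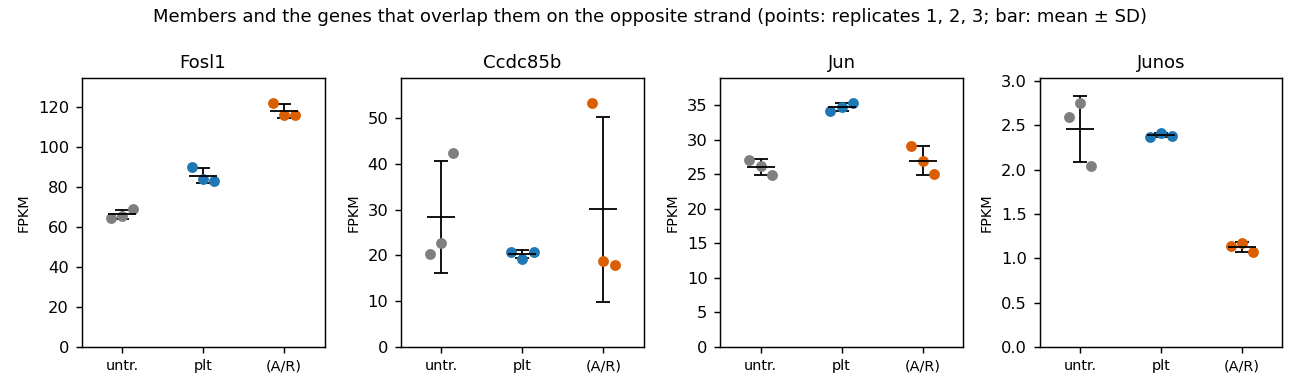
FPKM of Fosl1 and Jun beside the genes that overlap them on the opposite strand, with points for replicates 1 to 3 and bars for the mean ± SD (n = 3). Ccdc85b stands at 42.4 and 53.3 in 2 libraries and at 18.0 to 22.6 in the others, and Junos is lower in the (A/R) platelet group only.

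Other leucine zipper proteins can take the place of Fos or Jun proteins in the dimer. Of 14 such genes, 7 were tested. With platelets 0 passed edgeR's test, with the smallest p for Maff (log2 fold change 0.35, adjusted p 0.216), Mafk (0.18, adjusted p 0.243) and Atf7 (-0.18, adjusted p 0.282). With (A/R) platelets 3 rose and 1 fell, where 19.3% of all tested genes were called higher and 19.5% lower. The median log2 fold change was -0.04 with platelets and 0.16 with (A/R) platelets, against 0.00 over all tested genes in both. Jdp2, a repressor that pairs with Jun proteins, held 31.8, 33.5 and 31.1 FPKM in untreated cells, 30.5, 32.4 and 30.1 with platelets and 71.8, 69.1 and 65.4 with (A/R) platelets, a rise of 1.15 ± 0.053 on the log2 scale (SE, edgeR adjusted p 1.29e-06). Its (A/R) platelet libraries lay far above the other 6. Mafg, a small Maf protein, rose by 0.59 and Mafk by 0.23, while Maf fell by 1.98 from a low level of 1.49 ± 0.0515 FPKM. The direct comparison of the platelet groups had 2 higher with (A/R) platelets, Jdp2 (1.19) and Mafg (0.53), and Maf was lower (-1.70). Atf3, a stress-induced partner of Jun proteins, was not tested because only 2 libraries reached 1 FPKM. It held 0.0842 to 0.191 FPKM in untreated cells, 0.0915 to 0.112 with platelets and 0.980 to 1.26 with (A/R) platelets.

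The kinases that act on the family were listed in 2 branches. Of 9 tested ERK pathway genes, 0 passed with platelets (median log2 fold change -0.01, with Rps6ka2 at -0.10 and Map2k1 at 0.03), and 1 rose and 2 fell with (A/R) platelets (median -0.12, against 0.00 over all tested genes in both comparisons). The share called with (A/R) platelets was thus near that over all tested genes, 19.3% higher and 19.5% lower. Rps6ka2, a kinase downstream of ERK, rose by 1.67 from 0.735 ± 0.0893 to 2.26 ± 0.151 FPKM. Map2k1, the gene of the kinase MEK1, fell by 0.15. Of 10 tested JNK and p38 pathway genes, 0 passed with platelets (median 0.09, with Map2k3 at 0.14, Mapk9 at 0.21 and Mapk12 at 0.20), and 2 rose and 2 fell with (A/R) platelets (median -0.02), again near the 19.3% and 19.5% of all tested genes. Among these, Map2k6 fell by 2.41 from 1.43 ± 0.204 to 0.256 ± 0.0641 FPKM, and Map2k3 by 0.46 from 34.0 ± 1.21 to 23.8 ± 0.579 FPKM. Both encode activators of p38. Mapk9, the gene of JNK2, rose by 0.32, and Mapk12, the gene of p38 gamma, by 0.65. Against the platelet group, (A/R) libraries had higher Rps6ka2 (1.77) and Braf (0.29) and lower Map2k1 (-0.18). Of the JNK and p38 genes, Mapk12 (0.45) was higher, and Map2k3 (-0.60) and Map2k6 (-2.06) were lower. Leaving out (A/R) platelet library 1 brought the ERK pathway calls against untreated cells from 3 to 5.

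Of 10 tested genes of factors known at the Fos and Jun promoters, 0 passed with platelets, where Srf, the serum response factor, had the smallest p (0.37, edgeR adjusted p 0.0784), followed by Stat3 (0.11, adjusted p 0.340) and Mrtfb (-0.17, adjusted p 0.461). With (A/R) platelets 1 rose and 3 fell (median 0.08), in all a share near that over all tested genes, 19.3% higher and 19.5% lower. Srf went from 17.2 ± 0.830 to 35.2 ± 2.40 FPKM (log2 fold change 1.08 ± 0.066, SE, edgeR adjusted p 5.30e-06). Elk3, which acts with SRF, fell by 0.73, and Mrtfb and Mrtfa, genes of SRF coactivators, by 0.57 and 0.44. Against platelets alone, Srf was higher (0.71) and Elk3 (-0.75) and Mrtfb (-0.40) lower with (A/R) platelets. Of 5 genes for the turnover of Fos and Jun proteins, 0 passed with platelets. With (A/R) platelets Det1 (0.67) and Dda1 (0.30), parts of a ubiquitin ligase that acts on c-Jun, rose, and Itch (-0.18), a ligase of Jun proteins, fell, whereas Cop1 (-0.03) and Fbxw7 (-0.16) did not pass. That is 2 higher and 1 lower (median -0.03), beside 19.3% and 19.5% of all tested genes. Leaving out either the third untreated or the second (A/R) library lowered the calls from 3 to 1. With platelets Itch was at -0.09, Cop1 at -0.12 and Dda1 at 0.07. Det1 (0.63) was higher with (A/R) platelets than with platelets, where Dda1 (0.23) and Itch (-0.09) did not pass.

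Genes reported elsewhere as AP-1 targets were described as a list of 24, of which 19 were tested. The list was drawn up with results of these libraries known, so its direction is not independent evidence, and most of its genes answer to other factors as well. With platelets 4 rose and 0 fell (median log2 fold change 0.16), where 0.211% of all tested genes were called higher and 0.0507% lower. The 4 were Fhl2 (0.72), Plaur (0.58), Hmga2 (0.53) and Hbegf (0.48). Plaur, the urokinase receptor, held 30.0, 31.4 and 30.1 FPKM in untreated cells, 49.2, 41.3 and 44.7 with platelets and 86.3, 85.5 and 84.5 with (A/R) platelets. As with Fosl1, its groups did not overlap. With (A/R) platelets 10 rose and 3 fell (median 0.69), beside 19.3% and 19.5% of all tested genes. Ptgs2, the gene of cyclooxygenase 2, went from 35.7 ± 1.96 to 116.9 ± 3.88 FPKM (1.76), and Hmox1, heme oxygenase, rose by 1.62. Plau, the gene of the urokinase itself (-0.21), Ccnd1, cyclin D1 (-0.31), and Timp1, an inhibitor of matrix proteases (-0.38), fell. Compared with platelets, (A/R) platelets gave 11 higher and 6 lower (median 0.24), beside 17.1% and 17.1% of all tested genes, with the smallest p for Ptgs2 (1.47), Hmox1 (1.66) and Plaur (0.96). The 5 genes left untested were Mmp3, Mmp10, Mmp13, Il6 and Il11, with at most 0.370 FPKM in any library.

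**Figure D5:**
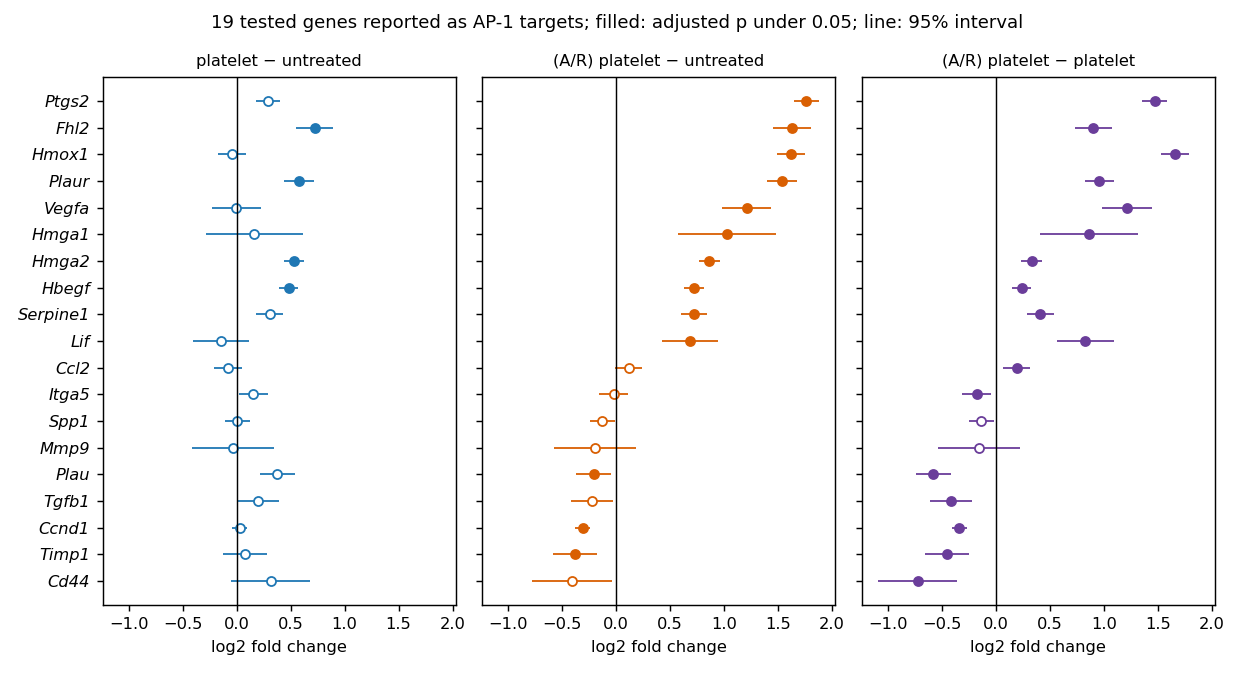
Log2 fold changes of the 19 tested genes reported as AP-1 targets, 1 panel for each comparison, in the order of their change with (A/R) platelets, with lines for 95% intervals and filled points for an adjusted p under 0.05. With platelets 4 genes are filled, all right of 0, and with (A/R) platelets 10 are filled right and 3 left of 0.

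The genes outside the family whose pattern was closest to that of a member were found by the root mean square difference of mean-centred log2(FPKM + 1) over the 9 libraries. For Fosl1, whose own root mean square around its mean was 0.34, the nearest were Ankrd1 (difference 0.05) and Lima1 (0.05). Ankrd1, a cardiac and muscle repeat protein, went from 52.0 ± 1.65 to 68.8 ± 2.84 and 99.3 ± 1.55 FPKM in untreated cells, platelet and (A/R) platelet libraries (SD, n = 3). For Jun (own value 0.19) they were Tspan9 (0.07), Nipal1 (0.07) and Adam19 (0.08). Tspan9, a tetraspanin, held 28.0 ± 1.23, 34.4 ± 0.716 and 26.3 ± 1.18 FPKM. Nipal1 held only 0.579 ± 0.0953, 1.09 ± 0.0470 and 0.719 ± 0.0958 FPKM. At that level the 1 added before the log shrinks changes, so its distance from Jun understates how their relative changes differ. For Junb (own value 0.34) they were Timm8a1 (0.08), Epb41l4aos (0.09) and Cmss1 (0.11), and Timm8a1 held 30.4 ± 4.14, 38.5 ± 1.44 and 51.2 ± 2.40 FPKM.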

How the data were processed

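RNA libraries came from K7M2 cells, 3 in each of 3 groups, per the labels. The authors deposited 1 table of FPKM and estimated counts per gene. The submitters' processing notes name the build GRCm38 (mm10), and no aligner, counter or strand setting is given in the sources used here. The deposited estimated counts were whole numbers and needed no rounding. In single-transcript genes with at least 200 counts, 99.3% to 99.5% matched the product of FPKM, length and a factor of the library within 1%, and more genes had 4 counts (898 to 1116 per library) than 3 (286 to 342) or 5 (173 to 213), so about 4 counts stand for 1 fragment. Precision is given by the spread between libraries. Limits at 12 counts, 3 fragments or 0.196 to 0.320 CPM, cover counting error only.

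The 11826 genes that reached 1 FPKM in 3 or more libraries were tested with edgeR 4.0.16 (quasi-likelihood, TMM, 1 mean per group, all 9 libraries, R 4.3.3), with Benjamini-Hochberg adjustment over all of them and calls at an adjusted p under 0.05. SE is the log2 fold change over the square root of F. The fit was also run on simulated data with known changes, and that outcome is not reported here. Alternatives were DESeq2 1.42.0, limma 3.58.1 on log2(FPKM + 1) and log2(FPKM + 0.1), other scalings and filters, counts divided by 4, the 6 libraries compared, a replicate block, and each library left out. Libraries of a group differed by more than counting noise (chi-square of 9.20 to 16.4 per gene).

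Members and lists were chosen with earlier results of these data known. Named genes were all members, up to 3 genes with the smallest p of each list and comparison, and the 3 nearest patterns to Fosl1, Jun and Junb. Mrtfa, Fbxw7, Atf3, Braf, Fhl2, Plau, Ccnd1, Timp1 and the untested targets were named after their values were seen. Some genes that this rule names are not reported here. Protein sequences were not used here.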

Additional observations from a re-analysis of the deposited data

How the results depend on the processing

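Over the 5 tested members and 3 comparisons, 300 refits were made, and 273 of them left the call as reported, 27 ended a call, and 0 made a new call or reversed a called direction. Uncalled values of Fosl2 with platelets and of Jund changed sign in some of them. The lost calls all belonged to Fosl1 and Jun with platelets and Junb between the platelet groups. The number of members called with platelets, 2, was 1 without a filter on low values and 1 in the 6 libraries compared, 0 with limma on log2(FPKM + 1), 0 with limma on log2(FPKM + 0.1) and 0 without both libraries with high Ccdc85b, a choice made after seeing the data. Leaving out 1 library in turn gave 0 to 2. With the replicate block it was 0, as were the calls over all genes. Same-numbered libraries did not deviate together (correlations of deviations -0.03 to 0.06), so the numbers were not taken as pairs. With (A/R) platelets 3 members were called in each alternative, and 3 or 4 between the platelet groups. Over all genes the 31 calls with platelets became 225 with DESeq2 (141 higher, 84 lower), 13 with limma on log2(FPKM + 0.1), 18 in the 6 libraries compared as well as without platelet replicate 3, and 11 without both libraries with high Ccdc85b. With limma on log2(FPKM + 1) the split of calls with (A/R) platelets was 1849 higher and 2710 lower, against 2286 and 2301 with edgeR, and that between the platelet groups 1688 and 2293, against 2024 and 2028. The list of reported AP-1 targets had 7 calls with platelets under DESeq2, 0 with the replicate block and 2 without both libraries with high Ccdc85b. The replicate block also ended the call of Junb between the platelet groups (adjusted p 0.0610). The causes were not tested. Depth limits Fos and Fosb, at 13 to 125 counts per library.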
